A study of Mus musculus with 12 samples.

Results

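The genes of cholesterol synthesis and efflux were examined in macrophages from lungs that carried B16 melanoma. The 32 genes were listed by name for their role, with earlier results of these data known, and all 32 were among the 14648 genes of the count table. They comprise 19 enzymes of cholesterol synthesis, 4 genes of its control, 3 genes of sterol transport, storage and oxysterol formation, and 6 genes of efflux and of the liver X receptors (LXR). All 32 passed the filter on low counts, as did every other gene of the table.

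Macrophages of 3 populations were sorted by flow cytometry on MerTK, CD64, SiglecF and CD11c: CD11c+ interstitial macrophages (IMs), CD11c- IMs and alveolar macrophages (AMs). The mice were Il9r-/- or WT on a C57BL/6 background and all bore B16 tumors. The study used adult mice of both sexes, and the age and sex behind each library are not given in the sources used here. RNA-Seq gave 2 libraries for each of 6 groups, 12 in all: Il9r-/- and WT CD11c+ IMs, Il9r-/- and WT CD11c- IMs, and Il9r-/- and WT AMs. The deletion of the IL-9 receptor is present in every cell of the animal, and how many mice a library holds is not stated, so the p-values below measure the spread between libraries, which may be technical.

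A cell makes cholesterol from acetyl-CoA through mevalonate, isoprenoids and squalene to lanosterol, which a further set of enzymes trims to cholesterol. When sterol in the endoplasmic reticulum is low, SCAP carries the transcription factor SREBP-2 to the Golgi for activation and the genes of this route are transcribed, while INSIG proteins hold the complex back when sterol is plentiful. Oxysterols activate LXR, whose targets include the exporters ABCA1 and ABCG1, and this arm is well known in AMs, which clear cholesterol-containing surfactant.

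Promoter sequence was examined because SREBP-2 acts together with the factor NF-Y, which binds CCAAT boxes. Of the 32 genes, 26 had a promoter of 250 bases before to 50 bases after a start site in the RefSeq table (GRCm38.p6), and both strands were searched. A CCAAT box (CCAAT) was present in 20 of the 26, which is 76.9%, against 41.1% of 27025 genes. Among the synthesis enzymes it was present in 15 of 16 (93.8%), and among the efflux and LXR genes in 1 of 4 (25%). The core of the sterol regulatory element (TCACNCCAC) was found in 1 of the 26 (3.85%), against 1.44% of all genes, and a repeat of the nuclear receptor half-site AGGTCA set 4 bases apart in 0 of the 26, against 4 of the 27025. These matches describe letters and were tied to no binding data.

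The 200 bases before the start site are shown for 3 enzymes on whose levels the comparisons turn, Hmgcs1 (chr13:119690151-119690350, plus strand), Mvd (chr8:122443423-122443622, minus strand) and Lbr (chr1:181842402-181842601, minus strand). Each is written 5′ to 3′ on the strand of its gene, with CCAAT boxes on either strand and the sterol regulatory element core in capitals.
Hmgcs1: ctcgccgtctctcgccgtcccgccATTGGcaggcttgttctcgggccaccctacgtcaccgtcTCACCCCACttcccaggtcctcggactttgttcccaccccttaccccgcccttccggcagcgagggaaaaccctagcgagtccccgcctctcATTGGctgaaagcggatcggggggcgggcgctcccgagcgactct
Mvd: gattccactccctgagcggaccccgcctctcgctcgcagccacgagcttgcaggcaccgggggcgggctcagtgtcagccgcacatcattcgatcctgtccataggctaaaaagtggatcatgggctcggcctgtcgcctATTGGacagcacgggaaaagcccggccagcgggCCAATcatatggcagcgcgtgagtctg
Lbr: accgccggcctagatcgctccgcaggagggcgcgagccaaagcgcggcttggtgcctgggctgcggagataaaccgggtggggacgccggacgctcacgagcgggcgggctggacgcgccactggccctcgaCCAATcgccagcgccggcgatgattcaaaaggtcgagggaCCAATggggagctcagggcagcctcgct
The Hmgcs1 stretch holds the core element and 2 CCAAT boxes. Mvd and Lbr hold 2 CCAAT boxes each and no core element, though their levels differed in opposite directions between populations.

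The libraries held 26988617 to 42020021 counts. Il9r stood at 4.34 and 4.19 CPM (counts per gene scaled to the library's TMM-adjusted total) in CD11c+ IM libraries labelled Il9r-/-, against 0.158 and 0.495 CPM in WT. In AMs it stood at 6.60 and 6.82 CPM in libraries labelled Il9r-/-, against 0.627 and 0.326 CPM in WT, and in CD11c- IMs at 2.59 and 6.09 CPM, against 0.750 and 6.47 CPM. The level of Il9r thus goes against the labels, the part of the gene that was deleted is not given in the sources used here, and the libraries are called below by their labels. Of the sorting markers, Itgax (CD11c) stood at 302 to 437 CPM in CD11c+ IMs, 27.9 to 54.1 CPM in CD11c- IMs and 487.5 to 801 CPM in AMs. The deposited comparison columns name the IM populations the opposite way round to the sample labels, which were followed here and under which Itgax is higher in CD11c+ IMs. Siglecf stood at 23.5 to 65.1, 10.8 to 32.8 and 616 to 686 CPM in the same order of populations, Mertk at 59.8 to 204, 20.6 to 100.1 and 354 to 435 CPM, and Fcgr1 (CD64) at 63.5 to 159, 58.0 to 101 and 66.0 to 76.5 CPM. The 3 WT libraries numbered 1 had Xist at 12.5 to 27.03 CPM and the other 9 at no more than 0.0478 CPM, so sex was uneven between the labels.

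Transcripts of other cell types were present in the sorted libraries, and their part in the differences below was not tested. The 5 melanocyte markers summed to 48.0 to 749.8 CPM in CD11c+ IMs, 3247 to 8697 CPM in CD11c- IMs and 58.4 to 305 CPM in AMs. The 5 fibroblast markers summed to 3.75 to 46.3, 563 to 871 and 6.59 to 8.29 CPM in that order, and the 5 epithelial markers to 73.8 to 232, 501 to 5791 and 103 to 201 CPM. The 6 dendritic cell markers were highest in CD11c+ IMs, at 444 to 2034 CPM, against 187 to 880 CPM in CD11c- IMs and 14.7 to 47.4 CPM in AMs. The 5 markers shared by macrophages summed to 23550 to 43190 CPM in CD11c+ IMs, 17080 to 25830 CPM in CD11c- IMs and 51020 to 56270 CPM in AMs. No marker of these lists was at 0 in any library. In such bulk samples fewer cells of a type and less RNA per cell cannot be told apart.

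The 32 genes were first compared between populations, averaging the genotypes (4 libraries against 4), with edgeR's quasi-likelihood test and Benjamini-Hochberg adjustment over all genes. In CD11c+ IMs against AMs, 2 of the 32 were higher and 5 lower at an adjusted p under 0.05, while 15.9% of all genes were higher and 10.7% lower. In CD11c- IMs against AMs, 3 were higher and 16 lower, while 27.9% of all genes were higher and 17.8% lower. The median log2 fold change of the 32 genes was -0.21 in CD11c+ IMs and -0.41 in CD11c- IMs, beside medians of 0.03 and 0.12 over all genes. Both comparisons use the same AM libraries. Summed over the 32 genes, the level was 2330 to 3136 CPM in CD11c+ IMs, 1992 to 2113 CPM in CD11c- IMs and 3608 to 3839 CPM in AMs, and these ranges did not overlap. Abcg1 alone supplied 972 to 1068 CPM of the AM sums and 124 to 352 CPM of the CD11c+ IM sums. The 19 enzymes summed to 1132 to 1491 CPM in CD11c+ IMs, 1065 to 1194 CPM in CD11c- IMs and 1158 to 1414 CPM in AMs, with overlap.

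**Figure D1:**
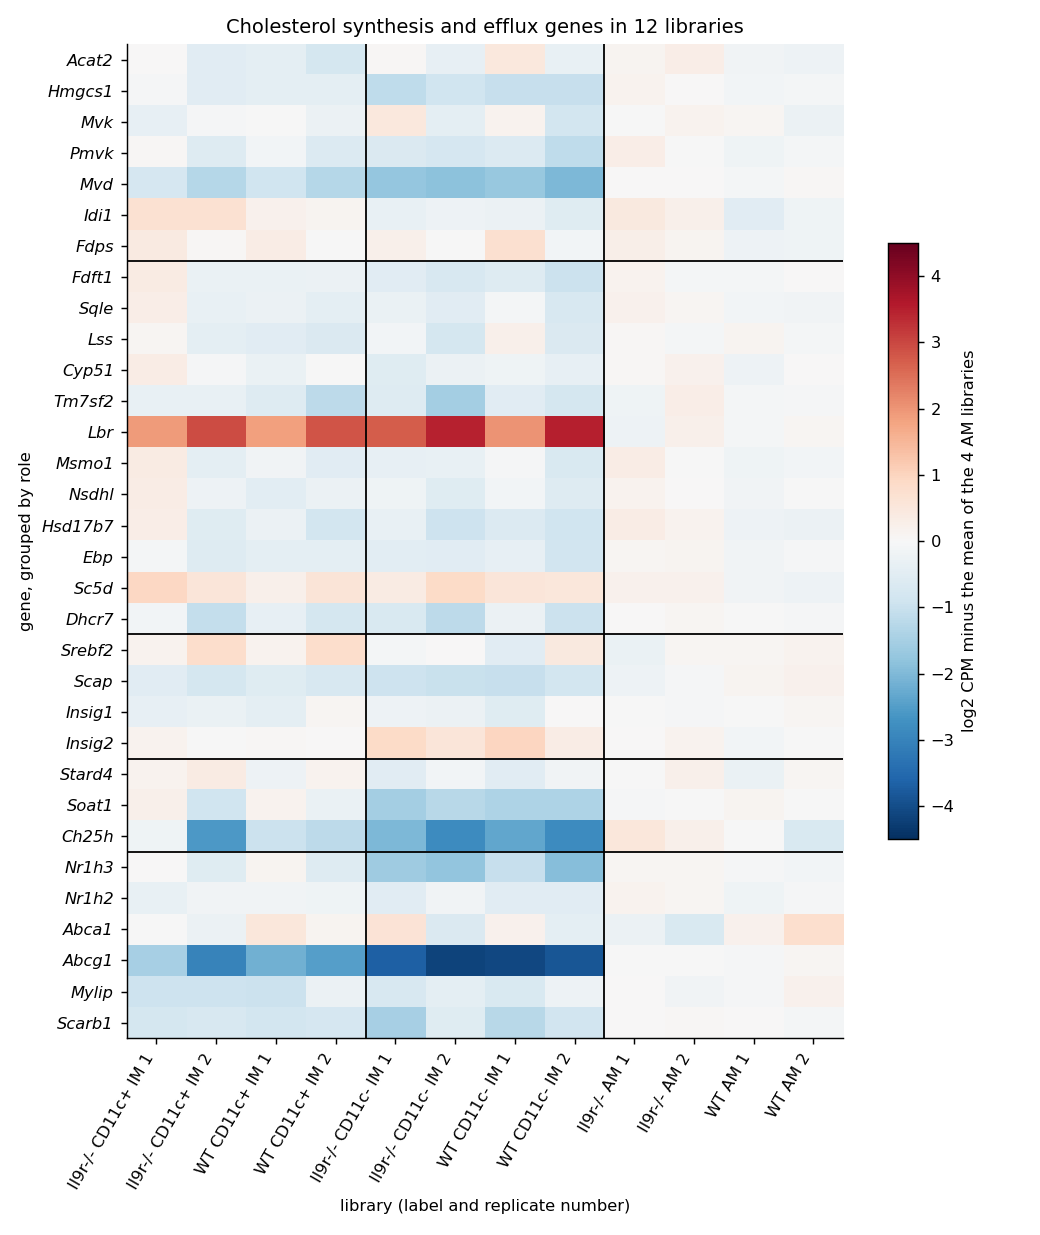
Heat map of the 32 genes (rows, by role) in the 12 libraries (columns), as log2 CPM minus the mean of the 4 AM libraries, blue for lower and red for higher. Abcg1 was the row with the deepest blue in both IM populations and Lbr the row with the deepest red, and most enzymes were pale.

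Abcg1, which exports cholesterol to lipoproteins and handles surfactant sterol in AMs, had the largest decrease of the 32 genes in both IM populations. It stood at 352 and 124 CPM in Il9r-/- and 226 and 180 CPM in WT CD11c+ IMs, at 78.8, 55.5, 58.1 and 69.0 CPM in CD11c- IMs, and at 979, 989, 972 and 1068 CPM in AMs (Il9r-/- 1 and 2, then WT 1 and 2, in each population from here on). The 3 populations did not overlap. Against AMs it was 4.56-fold lower in CD11c+ IMs (log2 fold change -2.19 ± 0.30 SE, adjusted p = 0.000902) and 15.3-fold lower in CD11c- IMs (-3.94 ± 0.32, adjusted p = 3.6e-05). Without any 1 library the 2 values ran between -2.66 and -1.91 and between -4.07 and -3.82, and both kept their calls. In CD11c+ IMs the library with the most Abcg1 (Il9r-/- 1, 352 CPM) also had the most of the 9 AM markers, at 15970 CPM, against 3789 CPM in the library with the least Abcg1 (Il9r-/- 2, 124 CPM). The other CD11c+ IM libraries had 9758 and 11270 CPM of AM markers, and AMs 32260 to 43500 CPM. Chil3 made up most of these sums, at 14420, 3262, 9181 and 10750 CPM in CD11c+ IMs. Car4, the next largest there, stood at 765, 142, 138 and 158 CPM, so the low sum of Il9r-/- 2 rested on Chil3.

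Abca1, the exporter that loads cholesterol onto apolipoprotein A-I, had no difference past the threshold between the populations. It stood at 81.2, 67.3, 115 and 87.7 CPM in CD11c+ IMs, 123, 52.1, 93.4 and 59.8 CPM in CD11c- IMs and 67.5, 50.6, 93.1 and 137 CPM in AMs. The ranges overlapped throughout. The log2 fold change against AMs was 0.07 ± 0.28 in CD11c+ IMs (adjusted p = 0.896) and -0.0073 ± 0.28 in CD11c- IMs (adjusted p = 0.988), and its sign changed with the setting. The ratio of Abcg1 to Abca1 CPM within a library, which is not scaled to length and serves only to compare populations, was 1.84 to 4.34 in CD11c+ IMs, 0.623 to 1.15 in CD11c- IMs and 7.82 to 19.6 in AMs.

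Nr1h3 encodes LXRα and fell in CD11c- IMs. It stood at 95.9, 64.9, 102 and 63.2 CPM in CD11c+ IMs, 30.9, 27.4, 45.8 and 25.1 CPM in CD11c- IMs and 99.8, 99.9, 91.3 and 87.1 CPM in AMs. Every CD11c- IM library was below every AM and every CD11c+ IM library. The log2 fold change was -1.55 ± 0.23 in CD11c- IMs against AMs (2.94-fold lower, adjusted p = 0.00071) and -0.21 ± 0.23 in CD11c+ IMs against AMs (adjusted p = 0.546). Nr1h2, which encodes the more widely expressed LXRβ, was lower by a smaller amount in CD11c- IMs (-0.42 ± 0.11, adjusted p = 0.0139), a call that was lost without the AM library Il9r-/- 1 or WT 2 (adjusted p up to 0.061). In CD11c+ IMs its value was -0.21 ± 0.11 (adjusted p = 0.222).

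Scarb1, a receptor that exchanges cholesterol with high-density lipoprotein, and Mylip, an LXR target whose product marks the LDL receptor for degradation, were lower in both IM populations. Scarb1 stood at 178, 189, 173 and 181 CPM in CD11c+ IMs, 109, 211, 129 and 169 CPM in CD11c- IMs and 313, 324, 313 and 289 CPM in AMs. Its log2 fold change against AMs was -0.78 ± 0.20 in CD11c+ IMs (adjusted p = 0.0173) and -1.004 ± 0.20 in CD11c- IMs (adjusted p = 0.00305). AMs were above every IM library. Mylip stood at 27.5, 27.9, 27.1 and 43.8 CPM in CD11c+ IMs, 32.1, 39.2, 32.9 and 44.6 CPM in CD11c- IMs and 52.9, 47.4, 50.5 and 60.7 CPM in AMs. Its log2 fold change was -0.75 ± 0.18 in CD11c+ IMs (adjusted p = 0.0144) and -0.51 ± 0.18 in CD11c- IMs (adjusted p = 0.0451). The value of Scarb1 in CD11c- IMs ran between -1.28 and -0.80 without any 1 library. Close to the threshold were the calls of Mylip in both IM populations and that of Scarb1 in CD11c+ IMs. That of Scarb1 in CD11c+ IMs was lost when any of 5 single libraries was left out (AM Il9r-/- 1, Il9r-/- 2 and WT 1, CD11c+ IM WT 1 and WT 2, adjusted p up to 0.0592), that of Mylip in CD11c+ IMs without the AM library Il9r-/- 1 or WT 2 (up to 0.058), and that of Mylip in CD11c- IMs without any library except CD11c- IM WT 2 (up to 0.139).

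**Figure D2:**
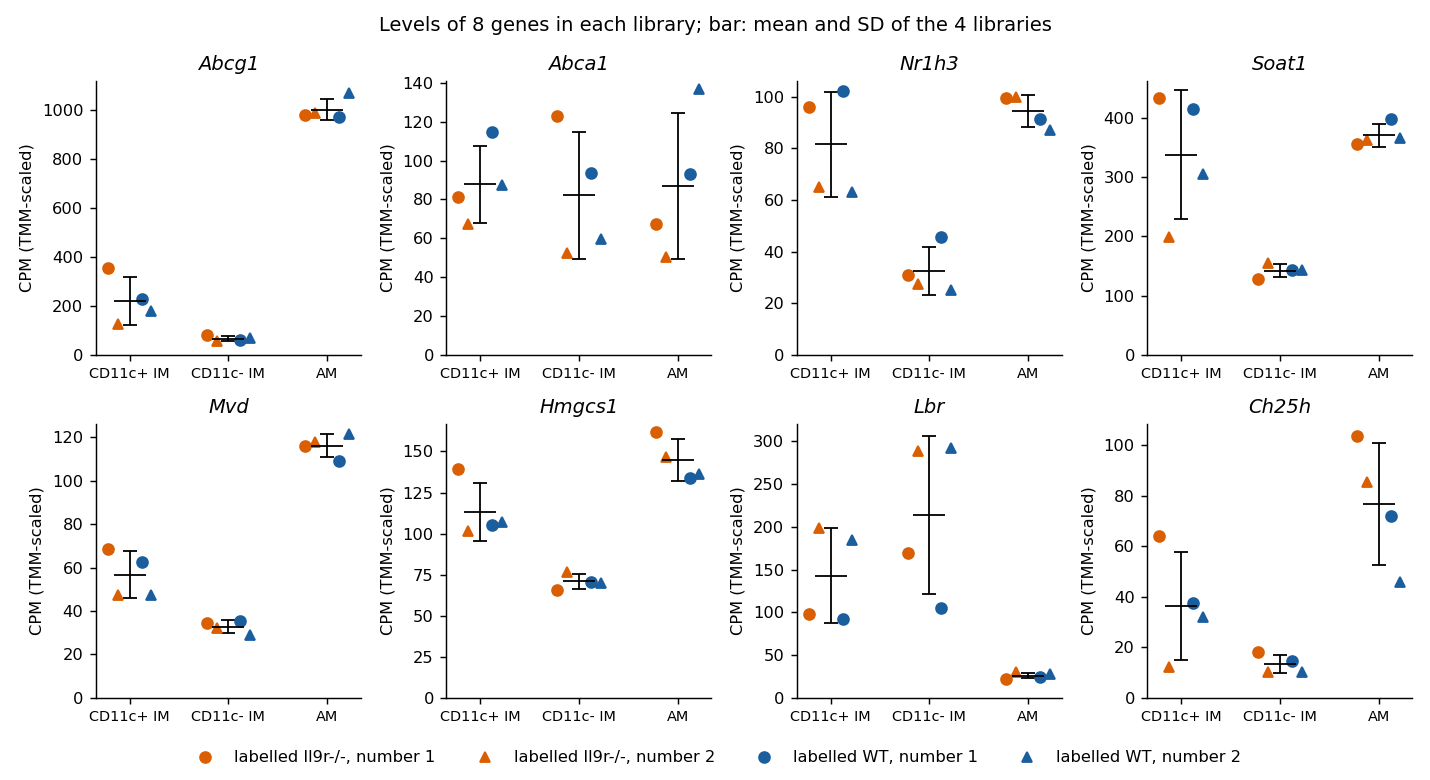
CPM of 8 genes in each library, by population from left to right, with bars for the mean and SD of the 4 libraries and colors for the genotype label. Abcg1 at 972 to 1068 CPM in AMs, against 124 to 352 CPM in CD11c+ IMs and 55.5 to 78.8 CPM in CD11c- IMs, was separated in all 3 populations, while Abca1 overlapped.

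Soat1 and Ch25h, of the storage and oxysterol genes, were lower in CD11c- IMs. Soat1 esterifies cholesterol for storage in lipid droplets. It stood at 434, 199, 416 and 305 CPM in CD11c+ IMs, 129, 155, 143 and 143 CPM in CD11c- IMs and 356, 364, 399 and 366 CPM in AMs. The CD11c- IM libraries were below all others, with a log2 fold change against AMs of -1.38 ± 0.23 (adjusted p = 0.00132), while in CD11c+ IMs the value was -0.14 ± 0.23 (adjusted p = 0.713). Ch25h makes 25-hydroxycholesterol, a sterol that suppresses SREBP-2 activation. It stood at 63.9, 12.1, 37.4 and 32.1 CPM in CD11c+ IMs, 18.1, 10.4, 14.6 and 10.4 CPM in CD11c- IMs and 104, 85.3, 71.8 and 45.8 CPM in AMs. Its log2 fold change against AMs was -2.48 ± 0.46 in CD11c- IMs (5.59-fold lower, adjusted p = 0.00226) and -1.04 ± 0.44 in CD11c+ IMs (adjusted p = 0.116). Every CD11c- IM library was below every AM library, and the CD11c+ IM libraries overlapped both. The CD11c+ IM library with the most Ch25h, Il9r-/- 1, was also the one with the most AM markers. Stard4, a carrier of sterol between membranes, was at 13.3 to 20.4 CPM in CD11c+ IMs, 11.1 to 14.3 CPM in CD11c- IMs and 12.8 to 18.4 CPM in AMs and passed in neither comparison with AMs.

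Of the 7 mevalonate enzymes, 1 (14.3%) was lower in CD11c+ IMs and 3 (42.9%) in CD11c- IMs, beside 10.7% and 17.8% of all genes. In CD11c- IMs Mvd and Hmgcs1 had the largest decreases. Mvd makes isopentenyl pyrophosphate from mevalonate pyrophosphate. It stood at 68.7, 47.5, 62.8 and 47.6 CPM in CD11c+ IMs, 34.6, 32.2, 35.5 and 28.8 CPM in CD11c- IMs and 116, 118, 109 and 121 CPM in AMs. The 3 populations did not overlap. Its log2 fold change against AMs was -1.04 ± 0.15 in CD11c+ IMs (2.05-fold lower, adjusted p = 0.00139) and -1.83 ± 0.16 in CD11c- IMs (3.55-fold lower, adjusted p = 4.26e-05). Hmgcs1, the synthase that forms HMG-CoA, stood at 139, 102, 105 and 107 CPM in CD11c+ IMs, 65.9, 76.9, 70.8 and 70.2 CPM in CD11c- IMs and 162, 147, 134 and 136 CPM in AMs. It was lower in CD11c- IMs (-1.02 ± 0.12, adjusted p = 0.000247), and its value in CD11c+ IMs was -0.35 ± 0.12 (adjusted p = 0.0644).

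Pmvk, the phosphomevalonate kinase, was lower in CD11c- IMs (-0.78 ± 0.20, adjusted p = 0.0106), at 20.3 to 29.4 CPM against 38.7 to 54.9 CPM in AMs. Acat2, Mvk, Idi1 and Fdps passed in neither comparison with AMs. Idi1, the isopentenyl diphosphate isomerase, had a value of 0.41 ± 0.14 in CD11c+ IMs (adjusted p = 0.0589) and of -0.35 ± 0.14 in CD11c- IMs (adjusted p = 0.0729). Fdps, which makes farnesyl pyrophosphate, was per length the most abundant of the 32 genes in both IM populations (mean log2 FPKM ± SD over 4 libraries 6.45 ± 0.20 in CD11c+ IMs, 6.45 ± 0.38 in CD11c- IMs), and Abcg1 was in AMs (7.43 ± 0.06).

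In the arm from squalene to cholesterol, 2 of 12 enzymes (16.7%) were higher and 0 lower in CD11c+ IMs, beside 15.9% and 10.7% of all genes. In CD11c- IMs 2 (16.7%) were higher and 5 (41.7%) lower, beside 27.9% and 17.8% of all genes. The 2 that were higher were Lbr and Sc5d in both. Fdft1 (squalene synthase), Tm7sf2, Hsd17b7, Ebp and Dhcr7 (the enzyme of the last step) were lower in CD11c- IMs, with log2 fold changes between -0.81 and -0.55. The calls of Dhcr7, Hsd17b7 and Tm7sf2 were near the threshold (adjusted p = 0.0309, 0.0437 and 0.0440) and rested on single libraries. That of Dhcr7 was kept only without CD11c- IM Il9r-/- 1 or WT 1, and those of Hsd17b7 and Tm7sf2 only without CD11c- IM Il9r-/- 1, with an adjusted p of up to 0.0969, 0.127 and 0.134 in the other cases. Those of Fdft1 and Ebp held without any 1 library. Sqle, Lss, Cyp51, Msmo1 and Nsdhl did not pass in either comparison. Sqle, the squalene epoxidase and a rate-limiting step, stood at 122, 78.2, 83.4 and 73.9 CPM in CD11c+ IMs, 79.9, 69.1, 93.7 and 59.6 CPM in CD11c- IMs and 115, 105, 90.5 and 89.7 CPM in AMs. Its log2 fold change was -0.16 ± 0.18 in CD11c+ IMs (adjusted p = 0.56) and -0.40 ± 0.18 in CD11c- IMs (adjusted p = 0.103), and the populations overlapped.

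Lbr, the lamin B receptor, is a protein of the inner nuclear membrane that also reduces the sterol C14 bond and is known for its part in the shape of the neutrophil nucleus. It stood at 97.9, 198, 91.9 and 184 CPM in CD11c+ IMs, 170, 289, 105 and 292 CPM in CD11c- IMs and 22.2, 30.0, 24.4 and 27.5 CPM in AMs. Every IM library was above every AM library, and in each IM group the library numbered 2 was above the one numbered 1. The log2 fold change was 2.46 ± 0.40 in CD11c+ IMs (5.49-fold higher, adjusted p = 0.00216) and 3.03 ± 0.41 in CD11c- IMs (8.19-fold higher, adjusted p = 0.000418). The 5 neutrophil markers summed to 556, 2073, 325 and 1240 CPM in CD11c+ IMs, 2436, 6241, 382 and 3080 CPM in CD11c- IMs and 112 to 252 CPM in AMs. The 4 B cell markers summed to 98.8, 356, 147 and 470 CPM in CD11c+ IMs, 179, 863, 198 and 1453 CPM in CD11c- IMs and 21.7 to 48.99 CPM in AMs. Both lists were thus also higher in the libraries numbered 2. Within the libraries numbered 1 the log2 fold change of Lbr was 2.01 in CD11c+ IMs (adjusted p = 0.00417) and 2.49 in CD11c- IMs (adjusted p = 0.00089). Within those numbered 2 it was 2.74 and 3.34. Among the libraries numbered 1, too, every IM library had higher sums of both marker lists than AMs. The part of such cells in the level of Lbr was not tested.

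**Figure D3:**
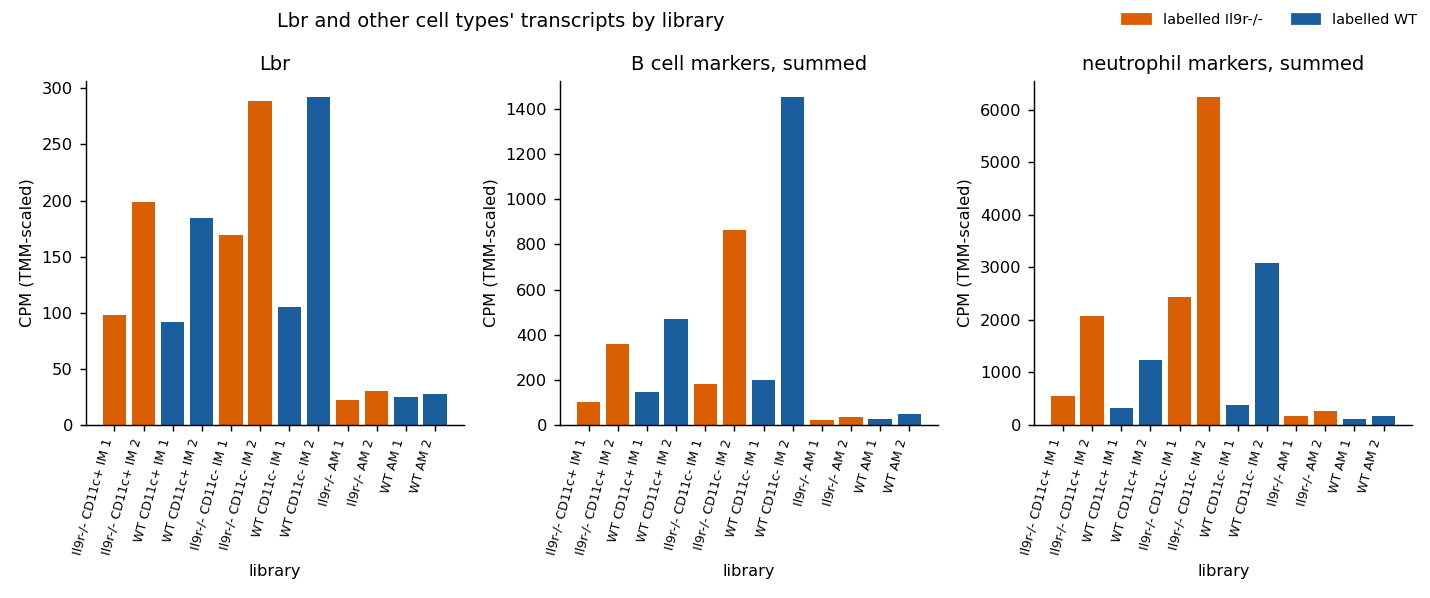
CPM of Lbr, of 4 B cell markers summed and of 5 neutrophil markers summed in each of the 12 libraries, colored by genotype label. Lbr reached 289 and 292 CPM in the 2 CD11c- IM libraries numbered 2, which also had the highest sums of both marker lists, while AMs had 22.2 to 30.0 CPM of Lbr.

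Tm7sf2, the other enzyme of the C14 reduction, was low in all populations, at 3.28 to 5.96 CPM in CD11c+ IMs, 2.57 to 5.23 CPM in CD11c- IMs and 6.57 to 9.19 CPM in AMs. The ratio of Lbr to Tm7sf2 CPM, again not scaled to length, was 16.8 to 56.2 in CD11c+ IMs, 20.1 to 112 in CD11c- IMs and 3.26 to 3.84 in AMs. Sc5d, the sterol C5 desaturase, stood at 73.5, 55.9, 45.2 and 57.3 CPM in CD11c+ IMs, 50, 70.4, 56.7 and 55.4 CPM in CD11c- IMs and 44.5, 43.9, 34.2 and 33.1 CPM in AMs. Its IM libraries were all above its AM libraries, by 0.58 ± 0.15 on the log2 scale in CD11c+ IMs (adjusted p = 0.0207) and 0.59 ± 0.15 in CD11c- IMs (adjusted p = 0.0113). The first call was kept only without CD11c+ IM Il9r-/- 2 or WT 1 when single libraries were left out (adjusted p up to 0.0776), and the other held without any 1 library. With Lbr left out, the enzymes summed to 954 to 1393 CPM in CD11c+ IMs, 773 to 1089 CPM in CD11c- IMs and 1134 to 1392 CPM in AMs.

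Of the control genes, Scap was lower in both IM populations and Insig2 higher in CD11c- IMs. Scap stood at 59.2 to 70.9 CPM in CD11c+ IMs and 49.4 to 58.0 CPM in CD11c- IMs, against 86.0 to 116 CPM in AMs, which gave -0.64 ± 0.12 (adjusted p = 0.00376) and -0.94 ± 0.12 (adjusted p = 0.000264). Insig2 stood at 35.7, 31.7, 33.2 and 32.4 CPM in CD11c+ IMs, 59.0, 47.0, 62.9 and 41.0 CPM in CD11c- IMs and 32.3, 35.9, 29.7 and 31.5 CPM in AMs. It was 0.70 ± 0.16 higher on the log2 scale in CD11c- IMs than in AMs (adjusted p = 0.00594). Srebf2, which encodes SREBP-2, stood at 117, 180, 115 and 182 CPM in CD11c+ IMs, 98.3, 107, 74.0 and 141 CPM in CD11c- IMs and 84.0, 111, 110 and 116 CPM in AMs. Its value was 0.50 ± 0.24 in CD11c+ IMs (adjusted p = 0.164) and -0.00060 ± 0.24 in CD11c- IMs (adjusted p = 1). In both CD11c+ IM groups the library numbered 2 was the higher one, and within those numbered 2 Srebf2 was 0.68 higher on the log2 scale in CD11c+ IMs than in AMs (adjusted p = 0.00736), against 0.25 within those numbered 1 (adjusted p = 0.524). Insig1, a target of SREBP-2 as well as its brake, stood at 51.1, 53.8, 47.8 and 69.8 CPM in CD11c+ IMs, 56.2, 55.3, 45.1 and 66.8 CPM in CD11c- IMs and 65.6, 63.5, 64.1 and 69.4 CPM in AMs, with overlap. Its values against AMs were -0.24 ± 0.16 in CD11c+ IMs (adjusted p = 0.313) and -0.23 ± 0.16 in CD11c- IMs (adjusted p = 0.262).

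**Figure D4:**
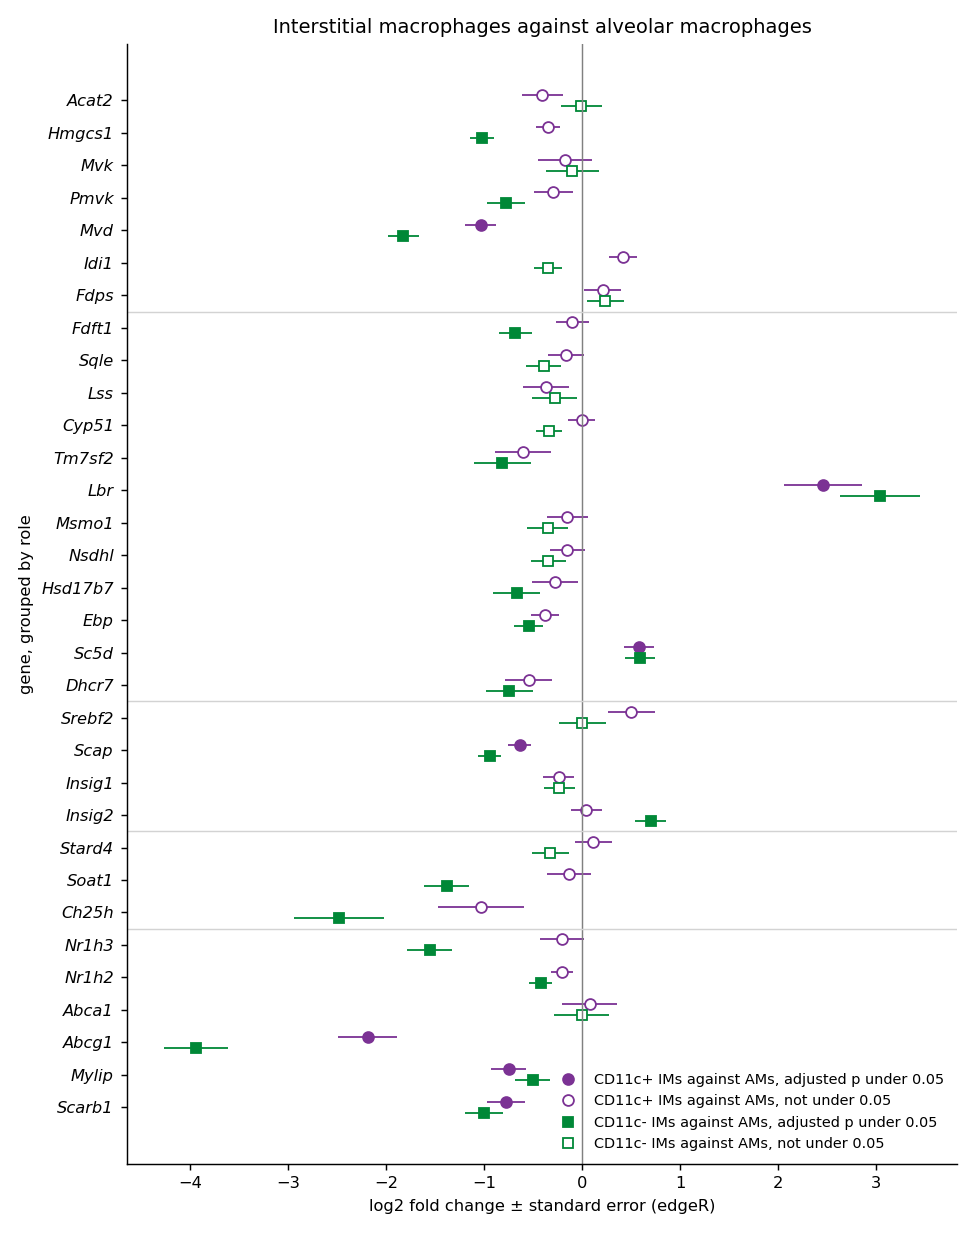
Log2 fold change ± SE of the 32 genes in CD11c+ IMs and in CD11c- IMs against AMs, filled where the adjusted p was under 0.05. Abcg1 at -2.19 and -3.94 and Lbr at 2.46 and 3.03 lay at the ends of the scale.

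The IM populations were also compared with each other. In CD11c+ IMs 6 of the 32 genes were higher and 1 lower than in CD11c- IMs, while 4.98% of all genes were higher and 7.71% lower, and the median over the 32 genes was 0.22, beside -0.05 over all genes. Those higher were Abcg1 (1.75 ± 0.30, 3.36-fold, adjusted p = 0.00788), Nr1h3 (1.34 ± 0.23, adjusted p = 0.00822), Soat1 (1.25 ± 0.23, adjusted p = 0.0113), Mvd (0.79 ± 0.15, adjusted p = 0.014), Idi1 (0.76 ± 0.14, adjusted p = 0.012) and Hmgcs1 (0.67 ± 0.12, adjusted p = 0.0113). For all 6 of them the CD11c+ IM libraries lay above the CD11c- IM libraries without overlap. Of the 32 genes, 9 lay above and 1 below in this way, beside 7.93% and 12.1% of all genes. The AM markers differed in the same direction, with 7 of 9 called higher in CD11c+ IMs (median log2 fold change 1.68). Their sums, mostly of Chil3, were 3789 to 15970 CPM in CD11c+ IMs and 1204 to 2918 CPM in CD11c- IMs. The part of these markers in the differences of the 32 genes was not tested. Insig2 was the one that was lower (-0.66 ± 0.16, adjusted p = 0.0278), and that call was lost without any of 6 single libraries (CD11c+ IM Il9r-/- 1 and 2 and WT 1 and 2, CD11c- IM Il9r-/- 1 and WT 1, adjusted p up to 0.093). The call of Mvd was lost without CD11c+ IM WT 1 (adjusted p = 0.0542). Without the 3 WT libraries numbered 1, which stand apart by Xist, 0 of the 32 were called (104 of all genes were, and 8 of the 32 had an unadjusted p under 0.05), with Abcg1 at 1.60 (adjusted p = 0.152) and Nr1h3 at 1.40 (adjusted p = 0.0536). Without those libraries 4 of the 32 were called in CD11c+ IMs against AMs and 11 in CD11c- IMs against AMs, and the calls over all genes numbered 1867 and 4402, against 3893 and 6691 with all libraries.

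Of 47 other genes of the pathway that were measured, CD11c+ IMs had 7 higher (14.9%) and 11 lower (23.4%) relative to AMs, beside 15.9% and 10.7% of all genes. CD11c- IMs had 12 higher (25.5%) and 11 lower (23.4%), beside 27.9% and 17.8% of all genes, so the shares that were higher were near those of all genes. Apoe, the apolipoprotein that macrophages secrete as a cholesterol acceptor, stood at 5103 to 9409 CPM in CD11c+ IMs, 4171 to 11630 CPM in CD11c- IMs and 116 to 260 CPM in AMs. Its log2 fold change was 5.34 ± 0.44 in CD11c+ IMs (adjusted p = 7.36e-05) and 5.50 ± 0.44 in CD11c- IMs (adjusted p = 3.38e-05), the opposite direction to that of Abcg1. Cyp27a1, which makes 27-hydroxycholesterol, was higher as well, by 2.89 ± 0.31 in CD11c+ IMs (adjusted p = 0.000266) and 3.25 ± 0.31 in CD11c- IMs (adjusted p = 7.38e-05). Srebf1, which encodes SREBP-1 and is an LXR target, was lower by 0.92 ± 0.10 in CD11c+ IMs (adjusted p = 0.000299) and by 1.16 ± 0.10 in CD11c- IMs (adjusted p = 4.83e-05). Lpcat3, an LXR target that remodels phospholipids, was at -1.38 ± 0.16 (adjusted p = 0.000414) and -1.78 ± 0.17 (adjusted p = 5.94e-05) in the same order. Rxra, the partner receptor of LXR, was at -1.65 ± 0.21 (adjusted p = 0.000651) and -2.32 ± 0.22 (adjusted p = 6.24e-05). These genes belong to a list of 13 for efflux, LXR targets and esters, whose direction was mixed. Of the 13, 4 (30.8%) were higher and 5 (38.5%) lower in CD11c+ IMs, and 5 (38.5%) higher and 5 (38.5%) lower in CD11c- IMs. Apoe, Apoc2, Cyp27a1 and Soat2 were higher in both, and Pltp in CD11c- IMs. Srebf1, Lpcat3, Rxra, Nceh1 and Apoc1 were lower in both.

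Between the IM populations, 4 of the 47 (8.51%) were higher and 2 (4.26%) lower in CD11c+ IMs, beside 4.98% and 7.71% of all genes. Those with the lowest adjusted p were Lrp1, a lipoprotein receptor (1.03 ± 0.16, adjusted p = 0.00593), Scd2, a fatty acid desaturase (-1.11 ± 0.20, adjusted p = 0.00961), Lipa, the lysosomal acid lipase (1.28 ± 0.25, adjusted p = 0.0144), and Elovl6, a fatty acid elongase (-0.69 ± 0.18, adjusted p = 0.0349).

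The series was made to ask what IL-9 receptor loss changes in these macrophages, and 0 of the 32 genes were called between libraries labelled Il9r-/- and WT in any population by edgeR (2 libraries against 2) or by DESeq2. In CD11c+ IMs 1 of the 32 had an unadjusted p under 0.05, while over all genes 0.00683% were called and 3.88% had an unadjusted p under 0.05. In CD11c- IMs 0 of the 32 had an unadjusted p under 0.05, while over all genes 0% were called and 1.7% had such a p. In AMs 2 of the 32 had an unadjusted p under 0.05, while over all genes 0.0205% were called and 4.08% had such a p.

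Idi1 had the lowest unadjusted p among the 32 genes in 2 of the 3 populations. It stood at 29.1 and 28.9 CPM in CD11c+ IM libraries labelled Il9r-/-, against 20.9 and 19.9 CPM in WT, a log2 fold change of 0.51 ± 0.20 (unadjusted p = 0.031, adjusted p = 1 by edgeR). In AMs it stood at 24.8 and 21.5 CPM, against 12.8 and 16.03 CPM in WT, a log2 fold change of 0.69 ± 0.20 (unadjusted p = 0.0075, adjusted p = 0.923 by edgeR). The libraries labelled Il9r-/- were above those labelled WT without overlap in both. With 2 libraries against 2 such separation carries little weight. Idi1 was named for its low p, and the share of all genes separated in this way was not computed. In CD11c- IMs Idi1 stood at 14.4 and 15.6 CPM, against 15.04 and 12.5 CPM, with overlap and a log2 fold change of 0.12 ± 0.20.

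Abca1 stood at 67.5 and 50.6 CPM in AM libraries labelled Il9r-/-, against 93.1 and 137 CPM in WT (-0.96 ± 0.40, unadjusted p = 0.0394, adjusted p = 1 by edgeR). In CD11c+ IMs its value was -0.45 ± 0.40 and in CD11c- IMs 0.19 ± 0.40, and in neither did it have an unadjusted p under 0.05. Sc5d in AMs was next (0.39 ± 0.21, unadjusted p = 0.0994). In CD11c+ IMs Nsdhl and Cyp51, which act on lanosterol and the sterols after it, followed Idi1 with 0.44 ± 0.25 (unadjusted p = 0.11) and 0.30 ± 0.19 (unadjusted p = 0.147). In CD11c- IMs the lowest values were those of Nr1h2 (0.20 ± 0.16, unadjusted p = 0.249), Dhcr7 (-0.35 ± 0.34, unadjusted p = 0.333) and Fdps (-0.27 ± 0.27, unadjusted p = 0.342). Each of these had an adjusted p of 1 by edgeR.

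Most enzymes had small positive values in 2 populations, and the counts of them below were added after the data were seen. Of the 19 synthesis enzymes, 18 had a value above 0 in CD11c+ IMs (median 0.34), 18 in AMs (median 0.21) and 11 in CD11c- IMs (median 0.02). Over all 14648 genes, 7470 had a value above 0 in CD11c+ IMs, 7080 in AMs and 7399 in CD11c- IMs. The enzymes summed to 1491 and 1165 CPM in CD11c+ IM libraries labelled Il9r-/-, against 1132 and 1138 CPM in WT, and to 1414 and 1342 CPM in AM libraries labelled Il9r-/-, against 1158 and 1207 CPM in WT. In CD11c- IMs they summed to 1087 and 1153 CPM, against 1194 and 1065 CPM in WT. The count in CD11c+ IMs rested on 1 library: without the CD11c+ IM library Il9r-/- 1, 9 of the 19 enzymes had a positive value. Without the WT library 2 of CD11c+ IMs 14 had one. In AMs 17 of 19 had one without any 1 library and also without the 3 WT libraries numbered 1, and in CD11c- IMs the count was 4 without the WT library 2 and 16 without the WT library 1. Markers of other cells also differed between the labels, and their part was not tested. The AM markers summed to 15970 and 3789 CPM in CD11c+ IM libraries labelled Il9r-/-, against 9758 and 11270 CPM in WT, so that the library on which the count rested had the most. In AMs they summed to 43500 and 42430 CPM, against 32260 and 34960 CPM in WT. Chil3 made up most of these sums, at 38500 and 37620 CPM in AM libraries labelled Il9r-/- and 28590 and 31330 CPM in WT. The melanocyte markers summed to 48.0 and 139 CPM in CD11c+ IM libraries labelled Il9r-/-, against 749.8 and 311 CPM in WT, and in AMs to 80.0 and 58.4 CPM, against 305 and 117 CPM in WT. Genes of 1 route share libraries and regulators, so these counts describe the libraries and carry no test.

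**Figure D5:**
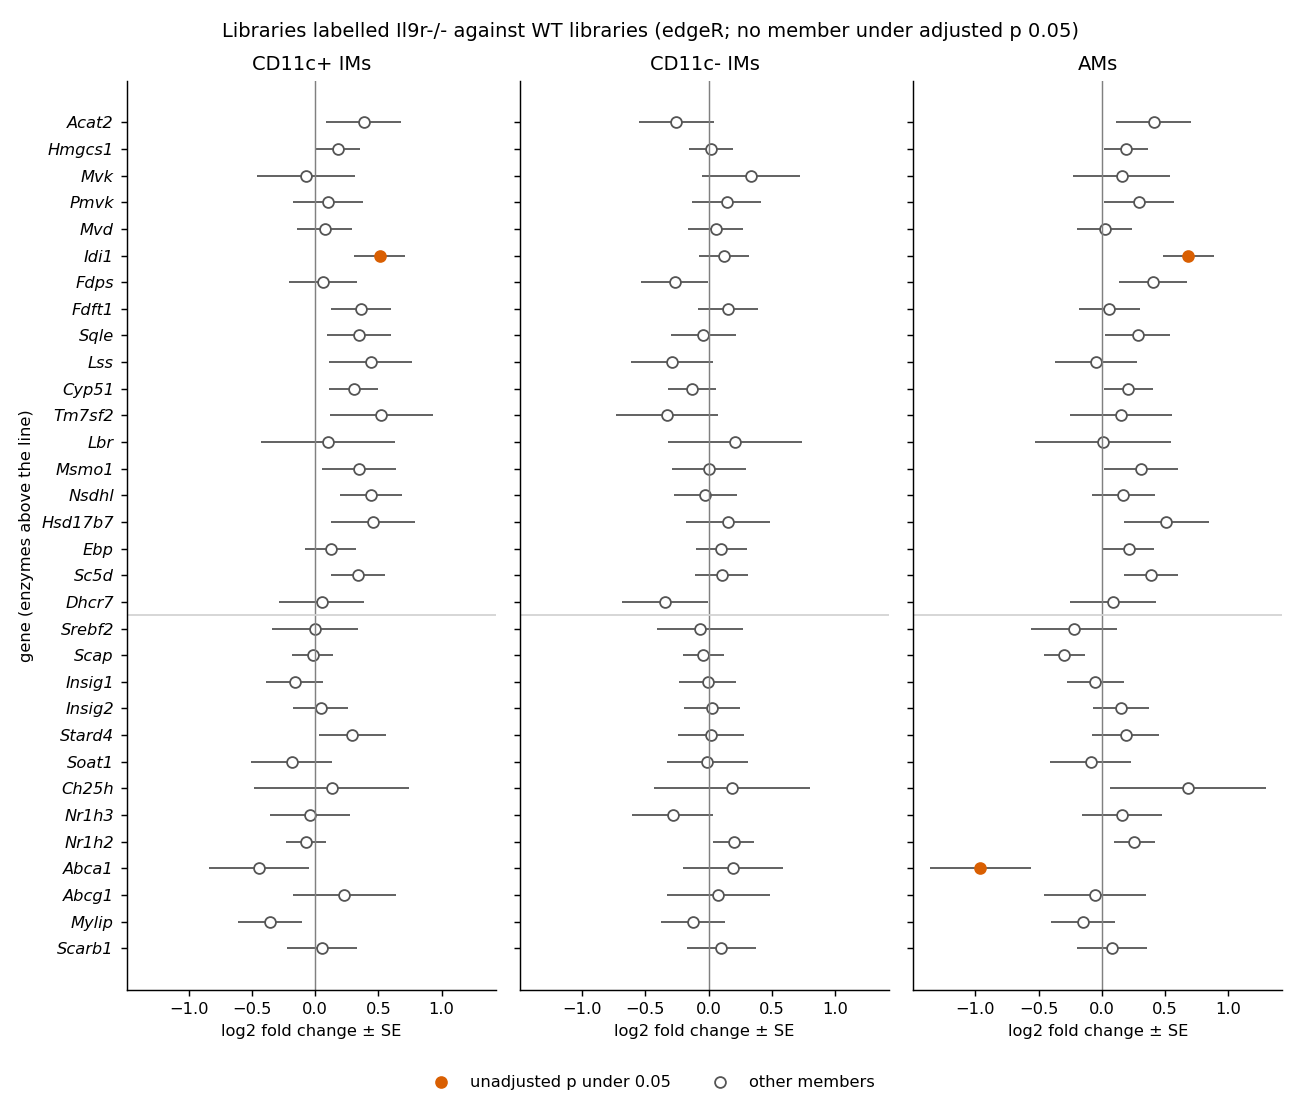
Log2 fold change ± SE of the 32 genes in libraries labelled Il9r-/- against WT, for CD11c+ IMs, CD11c- IMs and AMs, with the unadjusted p under 0.05 filled. The filled points are Idi1 at 0.51 in CD11c+ IMs and 0.69 in AMs and Abca1 at -0.96 in AMs, and no gene passed after adjustment.

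The difference of the genotype values between populations was tested as an interaction, and 0 of the 32 genes were called by edgeR or by DESeq2. For CD11c+ IMs beyond AMs 0 of the 32 had an unadjusted p under 0.05, while over all genes 0% were called and 2.82% had such a p. The lowest were Nr1h2 (-0.33 ± 0.23, unadjusted p = 0.18), Scap (0.28 ± 0.23, unadjusted p = 0.263) and Lss (0.49 ± 0.46, unadjusted p = 0.316). For CD11c- IMs beyond AMs 0 of the 32 had such a p by edgeR and 1 by DESeq2, while over all genes 0% were called and 2.3% had such a p by edgeR. Abca1 was at 1.15 ± 0.56 (unadjusted p = 0.0698), Idi1 at -0.56 ± 0.28 (unadjusted p = 0.0779) and Fdps at -0.67 ± 0.38 (unadjusted p = 0.108). Every one of these had an adjusted p of 1 by edgeR.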

How the data were processed

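RNA-Seq was performed on macrophages sorted from lungs of tumor-bearing mice. Per the labels and methods, the authors aligned reads to mm10 with STAR 2.5 and deposited raw counts of uniquely mapped reads for each refGene gene (featureCounts, Subread 1.5.1), with genes of low CPM removed. The kit does not mark strand, so reads from antisense partners are not separable. The paper nonetheless states a strand-specific setting for featureCounts, and its effect on the deposited counts was not tested. The authors also gave log2 FPKM, used here only for levels per length. Their own fold change, ratio and p-value columns, in which the IM populations are named the opposite way round to the sample labels, were left aside. 0 sample columns were left unmatched.

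The counts of 12 libraries in 6 groups were fitted with edgeR 4.0.16 (R 4.3.3, TMM, robust quasi-likelihood F test, 6 residual degrees of freedom, biological coefficient of variation 0.382), keeping the 14648 genes that reached 0.5 CPM in 2 or more libraries. Benjamini-Hochberg adjustment ran over all of them and calls needed an adjusted p under 0.05. Each SE is the size of the log2 fold change over the root of its F statistic. Alternatives were DESeq2 1.42.0 and its size factors, a CPM minimum of 5, no filter, fits on fewer groups, a replicate block, and libraries left out. The fits on the libraries numbered 1 alone and on those numbered 2 alone were both added after the data were seen. The fit was tested on simulated data. Python 3.11.15, pandas 2.3.3 and matplotlib 3.10.9 produced the tables and plots.

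The 32 members and all lists were chosen with earlier results of these data known. Described in full are Hmgcs1, Sqle, Insig1, Srebf2, Abca1, Abcg1, Nr1h3 and Ch25h, up to 4 called members per direction and comparison, the 3 lowest p-values where none was called, and up to 4 other pathway genes per comparison.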

Additional observations from a re-analysis of the deposited data

How the results depend on the processing

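Over 33 called values of single genes between populations, 660 values under alternatives kept the call in 535 cases, lost it in 125 and reversed in 0, and 11 of the 33 kept it under every alternative. In CD11c+ IMs against AMs, 7 of the 32 genes were called. With the replicate number as a replicate block 11 were, with the libraries numbered 2 alone (chosen after seeing the data) 15, without the 3 WT libraries numbered 1 or in WT alone 4, and in Il9r-/- alone 3. Leaving out single libraries gave 4 to 10. In CD11c- IMs against AMs, 19 were called, against 11 without the 3 WT libraries numbered 1, in WT alone and in Il9r-/- alone, 12 with the libraries numbered 1 alone, and 14 to 18 without single libraries. In CD11c+ IMs against CD11c- IMs, 7 were called, against 0 without the 3 WT libraries numbered 1 and in WT alone, 1 in Il9r-/- alone, and 5 to 8 without single libraries. These subsets hold fewer samples, and the calls over all genes moved too: in CD11c+ IMs against AMs they numbered 5010 with the libraries numbered 2 alone, 1867 without the 3 WT libraries numbered 1, 1693 in WT alone and 1824 in Il9r-/- alone, against 3893 with all libraries. Over all genes, CD11c- IMs against AMs had 3771 calls in WT alone, 4249 in Il9r-/- alone and 4568 with the libraries numbered 1 alone. With all libraries it had 6691. Between IMs there were 111 in WT alone and 320 in Il9r-/- alone, against 1859 with all libraries. The replicate block gave 20 and 10 calls in the other 2 population comparisons and 0 for genotype. Its calls over all genes numbered 4653 in CD11c+ IMs against AMs, 7476 in CD11c- IMs against AMs and 2574 between IMs. Same-numbered libraries deviated from their group means with correlations of 0.0009 to 0.41 over 15 pairs of groups, and the labels do not say that a number marks a mouse. Pairing was therefore not assumed, though the 3 WT libraries numbered 1 share Xist expression and neutrophil and B cell markers were higher in the library numbered 2 of every group.

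For genotype, 0 of the listed genes were called under every alternative. In the main fit 2 of them in AMs and 1 in CD11c+ IMs had an unadjusted p under 0.05. Where the AM libraries were fitted alone, 12 of them had such a p in AMs. The share of all genes with such a p in that fit is not given here. The 12 therefore cannot be read as a difference particular to these genes.

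The values that changed sign were those of genes that were not called, and the cause was not tested. Abca1 in CD11c+ IMs against AMs was at -0.1544 without the 3 WT libraries numbered 1, -0.1828 in WT alone and -0.1539 with the libraries numbered 2 alone, and at -0.0514 to 0.2249 without single libraries. In CD11c- IMs against AMs it was at 0.0063 with DESeq2 and with its size factors, 0.0723 with the CPM minimum of 5, 0.5698 in Il9r-/- alone, 0.4194 with the libraries numbered 1 alone and -0.3795 to 0.2389 without single libraries. Between IMs it was at -0.2391 in Il9r-/- alone, -0.1383 with the libraries numbered 1 alone and -0.1645 to 0.4544 without single libraries. Srebf2 in CD11c- IMs against AMs was at 0.0161 with DESeq2 and its size factors, 0.0784 with the CPM minimum of 5, 0.1776 without the 3 WT libraries numbered 1, 0.0746 in Il9r-/- alone, 0.1221 with the libraries numbered 2 alone and -0.2678 to 0.197 without single libraries. Nr1h3 in CD11c+ IMs against AMs was at 0.0425 with the libraries numbered 1 alone. Insig1 between IMs was at 0.0229 in a fit of those groups alone, 0.0713 in WT alone, 0.0079 and 0.0126 with the libraries numbered 1 and 2 alone, and -0.1373 to 0.1469 without single libraries. Without the 3 WT libraries numbered 1, the genotype values in CD11c- IMs were 0.0433 for Dhcr7 and 0.2156 for Fdps, and without single libraries they ran over -0.6502 to 0.0431 and -0.6294 to 0.2155.

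With 2 libraries per group, genotype differences of the size of their standard errors could not be resolved. Differences well above their standard errors, such as those of Idi1 and Abca1 in AMs, also went uncalled. The absence of calls thus does not show that genotype had no effect on these genes.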
